A study of Mus musculus with 6 samples.

Results

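The genes examined were 7 markers of the mesothelium: Msln, Upk3b, Bnc1, Krt19, Cst6, Wt1 and Aldh1a2, out of 21887 protein-coding genes of mouse chromosomes 1 to 19, X and Y. A listed region was linked to a marker when its midpoint lay inside the gene, or lay outside all protein-coding genes with that marker nearest and within 100 kb. By this rule 7 of the 3521 listed regions belonged to the markers. The markers were proposed after the lists had been inspected, so their counts are a description and were not tested.

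The regions came from ATAC-seq, which reads out open chromatin as the DNA a transposase can reach, in mouse embryonic fibroblasts taken from E13.5 embryos. The 3 FOP mutant libraries were Acvr1R206H/+, heterozygous for an activating change in the BMP receptor gene Acvr1 that causes fibrodysplasia ossificans progressiva, and the 3 wild-type libraries were Acvr1+/+. Both genotypes were grown in the same serum medium, and the series description calls the libraries biological replicates without saying which embryos they came from. In mutant cells 2965 regions were listed by the authors as more accessible and 556 as less, a ratio of 5.33. The lists give positions without counts, fold changes or p-values. Depth is therefore unknown, no value per library was analysed here, and neither the levels of these genes nor the cell type could be checked.

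The mesothelium is the layer of flat epithelial cells that lines the body cavities and covers the organs in them. It arises from the coelomic epithelium of the embryo, keeps keratins and tight junctions beside mesenchymal features, and can give rise to fibroblasts and smooth muscle cells. Embryonic fibroblast cultures are mixed preparations of connective tissue cells, into which such lining cells can be carried.

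Most regions at mesothelial markers were less accessible in mutant cells. Of the 7 regions, 6 were less accessible and 1 was more accessible, whereas 84.2% of all listed regions were more accessible. The less accessible regions belonged to 5 of the 7 markers, Krt19, Cst6, Msln, Upk3b and Bnc1, and the more accessible region belonged to Aldh1a2. Wt1 had no linked region. Among all protein-coding genes, 1.99% had a linked less accessible region and 7.27% a linked more accessible one, and since the markers were chosen from these lists nothing is read from the contrast. In a bulk culture, fewer cells of a type and less open chromatin per cell cannot be told apart.

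**Figure D1:**
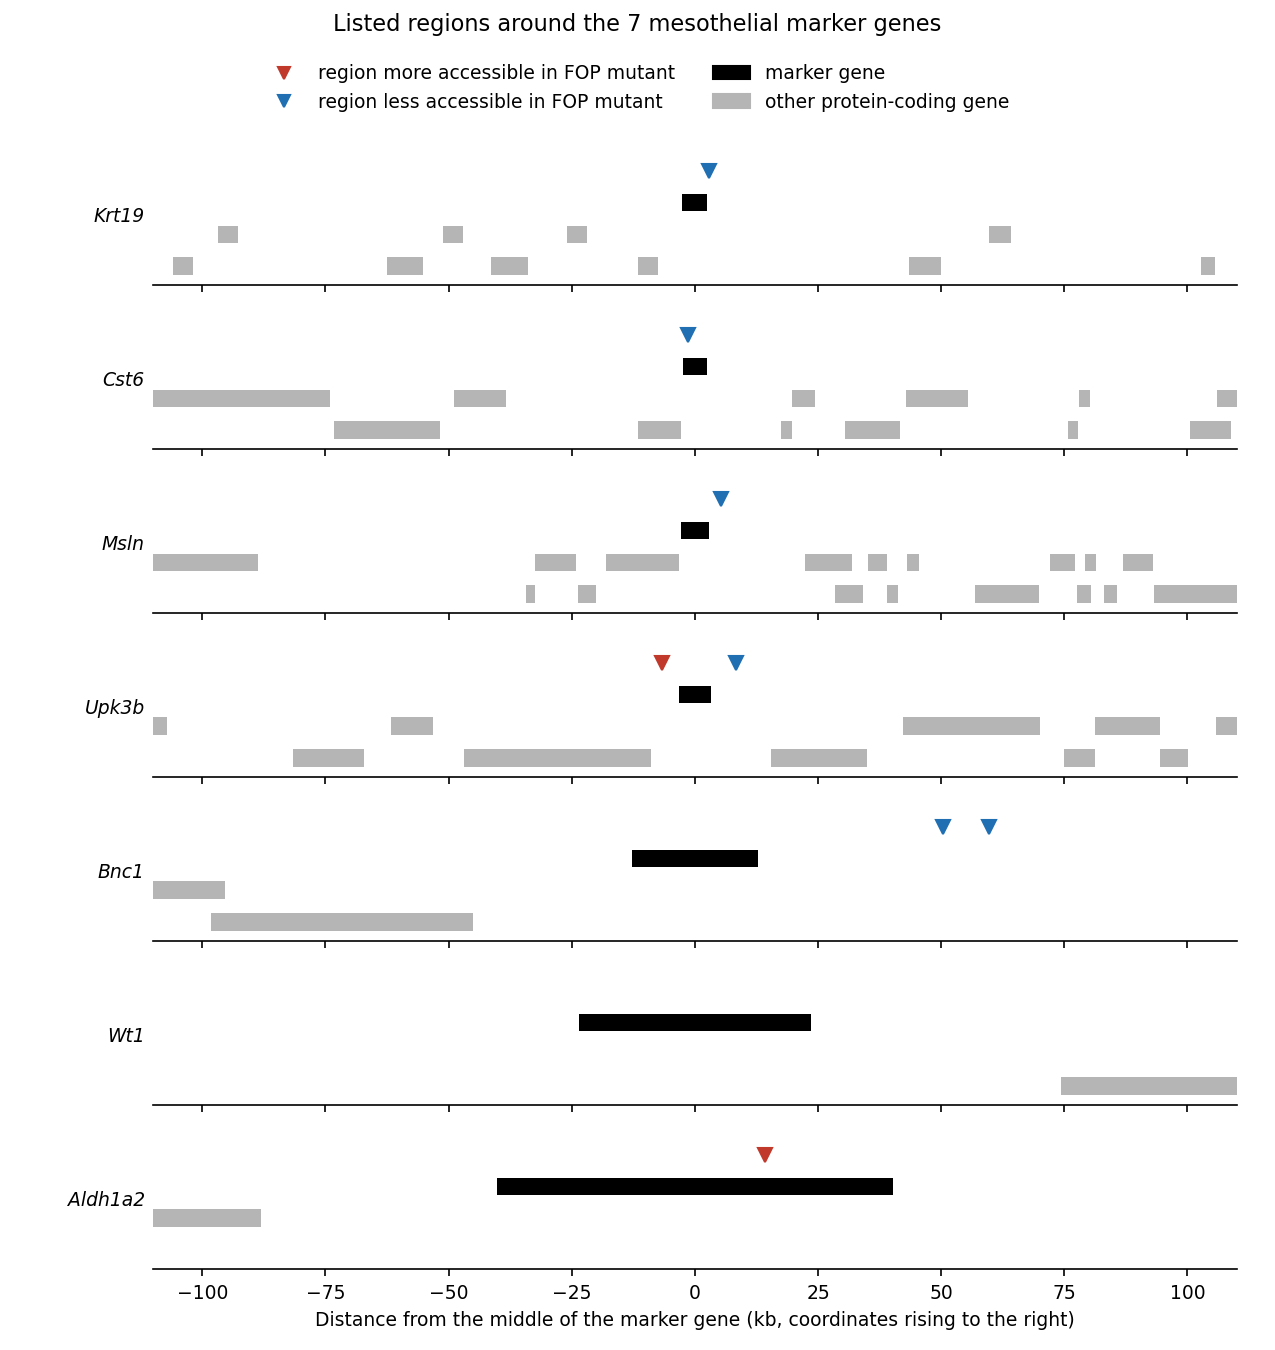
Positions of listed regions (triangles) around each marker gene (black bars) and its protein-coding neighbours (grey bars), by distance from the middle of the marker in kb. Blue triangles, less accessible in FOP mutant cells, sit at Krt19, Cst6, Msln, Upk3b and Bnc1. Red triangles, more accessible, sit inside Aldh1a2 and beside Upk3b, and Wt1 has none in the window.

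Both genes of membrane proteins, Msln and Upk3b, had a less accessible region. Msln encodes mesothelin, a lipid-anchored glycoprotein of the mesothelial surface that binds the mucin MUC16. Its region (chromosome 17, 25755814 to 25757762, GRCm38) was 1949 bp wide, the widest of the 556 less accessible regions and wider than any more accessible region, of which the widest was 1769 bp. Its near edge lay 1436 bp and its midpoint 2.41 kb beyond the high-coordinate end of the gene (25748613 to 25754378). The next genes were Mslnl, a mesothelin-like gene, at 8.43 kb and Ciao3 at 17.0 kb, in a gene-dense stretch with 17 other protein-coding genes within 100 kb of Msln. The nearest more accessible region was 338 kb away, inside the calcium channel gene Cacna1h.

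Upk3b encodes uroplakin 3B, a membrane protein related to those of the bladder lining and used as a mesothelial marker. It was the only marker with listed regions of both directions within 100 kb. Its linked, less accessible region (chromosome 5, 136049912 to 136050368) was 457 bp wide and lay 5.15 kb past the end of the gene, 11.6 kb downstream of the transcription start. That region sat in the 12.3 kb gap between Upk3b and its paralog Upk3bl, which was 7.12 kb away. A more accessible region of 427 bp (136034924 to 136035350) lay 3.36 kb on the other side, upstream of the start, but was nearer to Dtx2, a regulator of Notch signalling, at 2.26 kb and so was linked to that gene. Of the listed regions within 100 kb of any marker, this was the only one that the rule gave to another gene.

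Krt19 and Cst6 had regions on or next to the gene body. Krt19 encodes a type I keratin of simple epithelia and mesothelium. Its less accessible region (chromosome 11, 100145918 to 100146481) was 564 bp wide and overlapped the outermost 9 bp of the annotated span (100140810 to 100145926), with its midpoint 273 bp beyond the high-coordinate end. Strand was not used for Krt19, so that end was not assigned to the start or the stop of transcription. Among the less accessible regions, 1.08% had a midpoint as close to an end of a protein-coding gene. Distance was part of the linking rule, so this share is a description. The next genes were other type I keratins, Krt15 at 10.2 kb, Krt13 at 24.6 kb and, on the far side, Krt9 at 40.6 kb.

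Cst6 encodes cystatin E/M, a secreted inhibitor of cysteine proteases. Its less accessible region (chromosome 19, 5345146 to 5346246) was 1101 bp wide and lay wholly inside the 4.87 kb gene (5344705 to 5349574), with the midpoint 991 bp from the low-coordinate end. It was the only less accessible region inside a marker, and 93.0% of the less accessible list was narrower. The sperm ion channel gene Catsper1 was 1.42 kb away and Banf1, which encodes a chromatin-binding barrier protein, 18.9 kb. Krt19 and Cst6 had no other listed region of either direction within 1 Mb. Over all less accessible regions the median distance to the nearest listed region was 199 kb. The share with none within 1 Mb was not computed, so this is a description.

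The transcription factor genes Bnc1 and Wt1 differed. Bnc1 encodes basonuclin 1, a zinc finger protein of basal epithelia and germ cells. It had 2 less accessible regions, and 0.142% of all protein-coding genes had that many or more. They were 678 bp (chromosome 7, 82029484 to 82030161) and 464 bp wide (82038925 to 82039388), with midpoints 9.33 kb apart. Their edges were 8763 bp apart, so with regions within 10 kb merged the 2 counted as 1. The 0.142% was not recomputed with merging. Bnc1 lies on the minus strand, so these regions were 37.5 and 46.9 kb upstream of its start, in a gap of 182 kb before Sh3gl3. These were the farthest links of the markers, and the next protein-coding gene, Hdgfl3, was 95.4 and 105 kb away. A non-coding RNA gene, Gm46013, lay nearer to both regions, at 13.7 and 23.0 kb. With non-coding genes admitted, or with links limited to 10 kb, Bnc1 had no linked region.

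Wt1 encodes a zinc finger factor of the mesothelium, epicardium and kidney. The nearest listed region to Wt1 (chromosome 2, 105126529 to 105173614) was less accessible and 262 kb away, with Prrg4 its nearest gene at 14.8 kb. A further less accessible region lay 502 kb away inside Pax6, a regulator of eye and brain development. The nearest more accessible region was 1254 kb away. The stretch from which a region would have been linked to Wt1 was 127 kb, close to the 132 kb of Bnc1. It was above the 12.6 to 27.9 kb of Msln, Upk3b, Krt19 and Cst6, which had 1 region each. The markers were chosen from these lists, and regions per stretch were not computed for all genes. Nothing is therefore read from stretch set against count.

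Aldh1a2, which encodes the retinaldehyde dehydrogenase that makes retinoic acid in mesothelium and other embryonic mesoderm, was the marker with a linked more accessible region. The region (chromosome 9, 71269730 to 71270652) was 923 bp wide and lay inside the gene (71215789 to 71296243), 54.4 kb downstream of the start and 26.1 kb from the far end. It was wider than 88.5% of the more accessible list. The nearest other protein-coding genes, the water channel gene Aqp9 and the RNA polymerase gene Polr2m, were 102 and 208 kb away. Aldh1a2 had the widest linking stretch of the markers, 196 kb. The nearest less accessible region was 401 kb away inside Cgnl1, a cingulin-like junction gene.

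**Figure D2:**
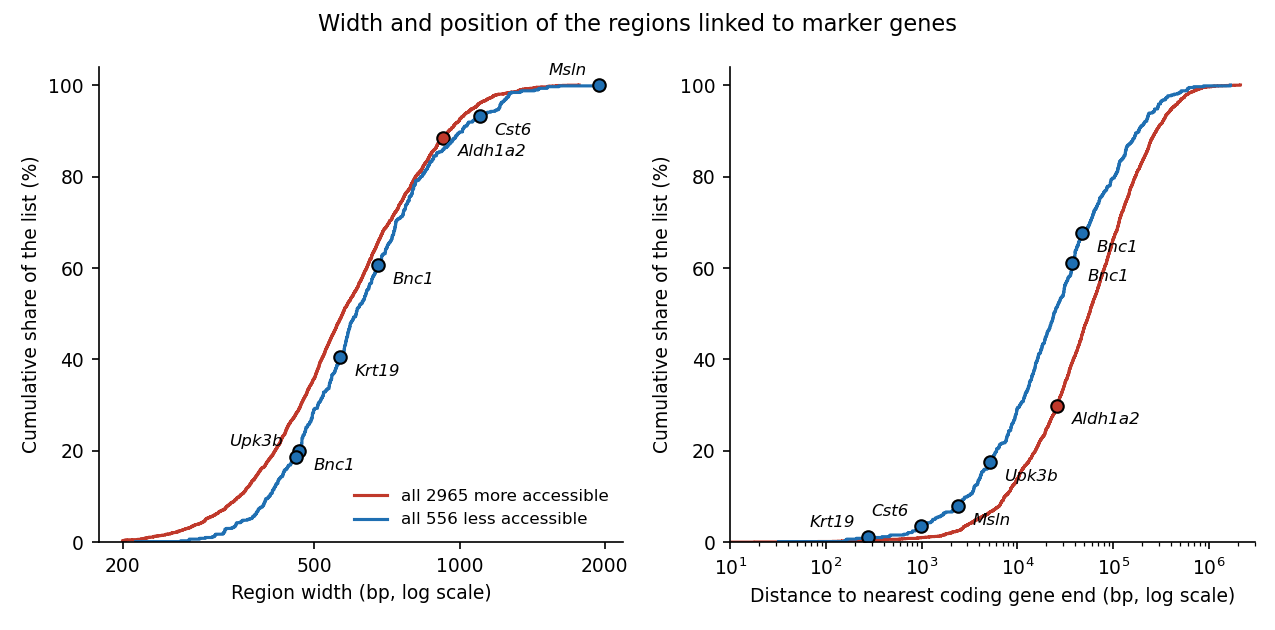
Cumulative share of each list, in percent, by region width (left, bp, log scale) and by distance from midpoint to the nearest end of a protein-coding gene (right, bp, log scale). Circles mark the regions linked to markers. The Msln region is the widest at 1949 bp, and the regions of Krt19 and Cst6 lie within 1 kb of a gene end.

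The regions of the markers spread over the widths of the lists, with Msln and Cst6 at the wide end. The 6 less accessible regions had a median width of 621 bp, against 610.5 bp over the whole less accessible list. Their distance to a gene end ran from 273 bp at Krt19 to 46.9 kb at Bnc1, and 4 of the 6 lay inside or within 6 kb of the marker. Of all less accessible regions, 19.8% were within 6 kb of a gene end, and of all more accessible regions 7.52%. The rule used distance and did not use width, so nothing is read from how close the linked regions lay. The shares of the whole lists count the ends of any protein-coding gene, not the span of a marker. With 6 regions no test was made.

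Beyond the linked regions, the neighbourhoods of the markers held mostly more accessible regions. Within 1 Mb of the markers lay 21 listed regions that were not linked to them, 18 more accessible and 3 less accessible. The more accessible share of 85.7% was near the 84.2% of all listed regions. The markers differed among themselves in this respect. Bnc1 had 7 more accessible regions within 1 Mb, 4 of them between 395 and 456 kb away inside Adamtsl3, a gene of the extracellular matrix. Aldh1a2 had 6, its own included, Upk3b had 4 and Msln had 2. Wt1, Krt19 and Cst6 had none.

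**Figure D3:**
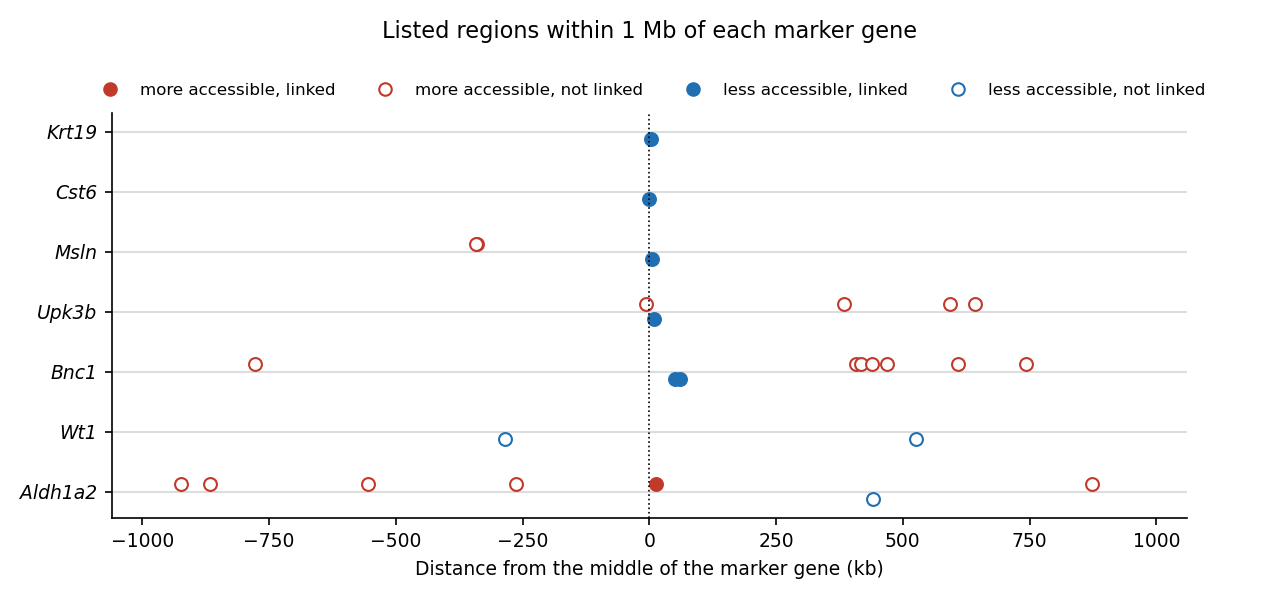
Listed regions within 1 Mb of each marker gene, by distance from the middle of the gene in kb, with filled circles for linked regions and open circles for the others. The blue filled circles (less accessible) sit close to 5 markers, which follows from the linking rule and the choice of markers. The open circles are mostly red (more accessible), 18 of 21 (85.7%), near the 84.2% of all listed regions.

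Promoter sequences were in the RefSeq table for 3 of the 7 markers, Upk3b, Bnc1 and Aldh1a2, and are shown for these 3. The 250 bases before each start are given in the direction of transcription, and capitals mark every match to the motifs searched. No listed region overlapped these bases.
Upk3b (GRCm38.p6, chr5:136038246-136038495, + strand): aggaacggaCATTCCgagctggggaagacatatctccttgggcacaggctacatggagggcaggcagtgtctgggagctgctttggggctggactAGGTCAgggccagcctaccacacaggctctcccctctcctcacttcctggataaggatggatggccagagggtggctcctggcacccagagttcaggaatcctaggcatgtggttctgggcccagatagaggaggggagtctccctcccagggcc
Bnc1 (GRCm38.p6, chr7:81992300-81992549, - strand): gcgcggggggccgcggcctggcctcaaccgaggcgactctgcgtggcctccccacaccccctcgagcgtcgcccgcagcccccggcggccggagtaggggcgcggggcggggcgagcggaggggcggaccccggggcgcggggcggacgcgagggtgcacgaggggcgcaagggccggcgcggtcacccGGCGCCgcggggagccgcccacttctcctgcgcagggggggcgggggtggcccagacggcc
Aldh1a2 (GRCm38.p6, chr9:71215539-71215788, + strand): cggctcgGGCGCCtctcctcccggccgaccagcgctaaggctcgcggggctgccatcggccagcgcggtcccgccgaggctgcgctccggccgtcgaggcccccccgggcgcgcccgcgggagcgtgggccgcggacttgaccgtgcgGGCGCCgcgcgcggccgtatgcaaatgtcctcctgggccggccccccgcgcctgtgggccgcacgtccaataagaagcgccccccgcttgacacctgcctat

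Motifs were searched on both strands, and the share of 32851 promoters of the same length that held each is given. The BMP-type SMAD motif GGCGCC, present in 9.59% of promoters, was found 1 time before Bnc1 and 2 times before Aldh1a2. The TEAD motif GGAATG (12.6%) and the nuclear receptor element AGGTCA (14% of promoters) were each found 1 time before Upk3b. No match in any of the 3 windows was found for TGANTCA of AP-1 (6.75%), the E-box CACGTG (6.02%), GCGGGGGCG of EGR factors (2.57%), GCGTGGGAG of WT1 (0.405%), GTCTAGAC of SMADs (0.167%) or TATAAA (12.4%). The matched letters did not overlap one another. The promoters of Bnc1 and Aldh1a2 were GC-rich, with 83.6% and 77.6% G or C and 39 and 40 CpG pairs, against a median of 52.4% and 6 over all promoters. The promoter of Upk3b had 60.8% and 2 CpG pairs. The 9.59% for GGCGCC was taken over all promoters and was not matched for base composition, so the matches are not read as unusual. Sequences of the listed regions were not searched, and any tie between promoter content and the direction of the linked regions was not tested.

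Further mesothelial genes had linked regions at about the share of all genes. Of a list of 30 other genes of the mesothelium, 0 had a less accessible region, against 1.99% of all protein-coding genes, a share at which a list of this size need not hold any. A more accessible region was linked to 2 of them (6.67%), near the 7.27% of all protein-coding genes. These were Crb2, a polarity protein gene, with a region at 7.1 kb, and Wnt4, which encodes a WNT ligand, with a region at 26.7 kb. The other 28 had none, among them Lrrn4, Calb2 (calretinin), Pdpn (podoplanin), Muc16, the partner of mesothelin, and Upk1b. Less accessible regions lay within 100 kb of 2 genes of this list but were given to nearer genes. The region 24.1 kb from Krt7, a type II keratin gene, was nearer to Krt80, and that 46.2 kb from Wnt4 lay inside Cdc42. Over the 30 genes the median distance to the nearest less accessible region was 1288 kb. The same median was not computed for all protein-coding genes, so it cannot be called long or short.

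Relatives of the markers were counted in the same way. Krt7, Krt8, Krt18 and Upk1b were in this list and in the further mesothelial list. Of 32 genes of the same families, 0 had a less accessible region (1.99% of all genes) and 1 (3.12%, against 7.27% of all genes) a more accessible one, so no difference from other genes is read from them. The list held Mslnl, Upk3bl, Bnc2, the keratins Krt8 and Krt18 and the cystatin Cst3, and the only member with a linked region was Aldh1a1, a related retinaldehyde dehydrogenase gene. A more accessible region of 353 bp lay inside it (chromosome 19, 20542487 to 20542839). Of 23 other genes of the retinoic acid pathway, 5 (21.7%, against 7.27% of all genes) had more accessible regions and 0 a less accessible one (1.99% of all genes). The receptor gene Rarb had 2 regions inside it, and the retinoid-responsive gene Rarres1 also had 2, within 10 kb of each other. Aldh1a1, the coactivator gene Ncoa1 and the receptor gene Rxra had 1 each. Aldh1a1 is thus counted among the relatives and in the pathway list. The share takes no account of gene length, and Rarb is a long gene (16430839 to 17082331), so nothing is read from it about the pathway.

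Transcription factor genes of the coelomic lining and epicardium, the mesothelium of the heart, gave 4 of 18 (22.2%, against 7.27% of all genes) with more accessible regions and 0 with less accessible ones (1.99% of all genes). Osr1 and Mecom had 2 each, and Tbx18 and Hand2 had 1 each. Both Mecom regions lay inside that long gene (29951296 to 30509759), and the shares of these lists take no account of gene length. Tcf21, Gata4 and Gata6 had none. Of 20 fibroblast and mesenchyme genes, 7 (35%, against 7.27% of all genes) had more accessible regions, led by Fap, Lum, Prrx1 and Twist2 with 2 each. The 2 regions of Fap, and those of Lum, lay within 10 kb of each other, so with merging each pair would count as 1. Of the 20 genes, 0 had a less accessible region (1.99% of all genes). With links limited to 10 kb, more accessible regions were linked to 1 of the 18 and 3 of the 20, and to 5 of the 23 retinoic acid genes. The share of all genes at 10 kb was not computed, so these counts have no background beside them. With lists of this size, a count of 0 at a share of 1.99% is not a result about these genes. These lists were drawn up with earlier results of these data known, and their shares were not tested.

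**Figure D4:**
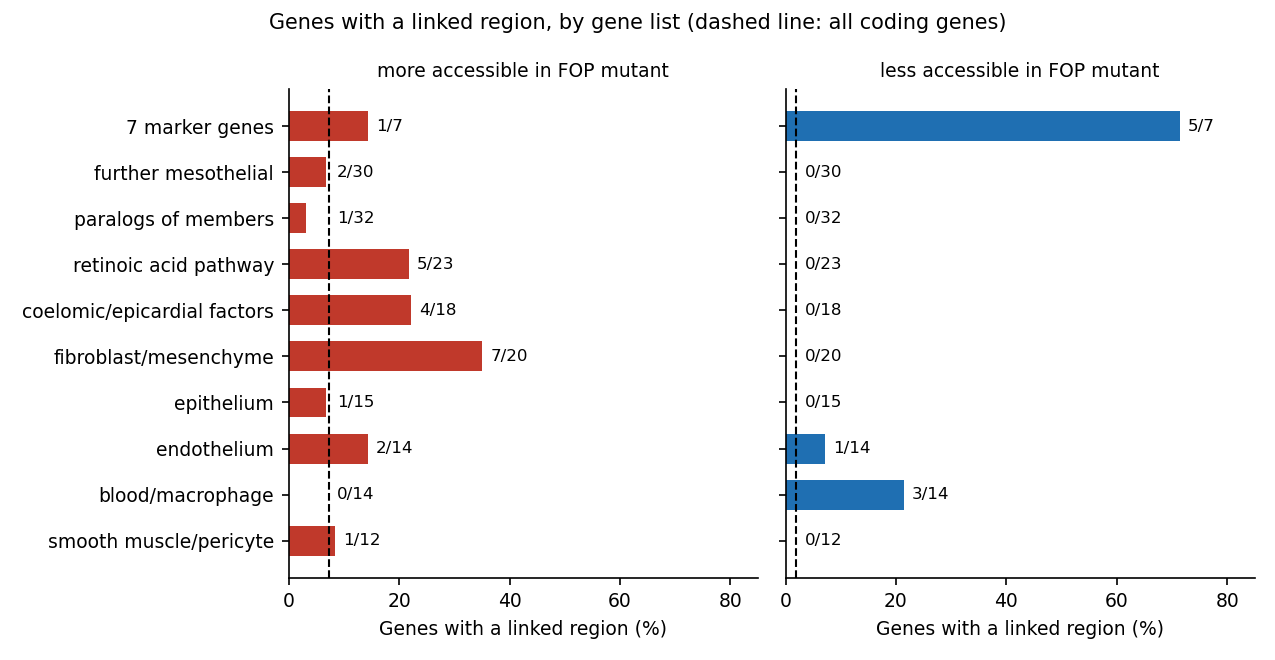
Share of genes with a linked region in percent, for regions more accessible (left) and less accessible (right) in FOP mutant cells, by gene list, with counts beside the bars and the share of all protein-coding genes as a dashed line (7.27% and 1.99%). The 7 markers were chosen from these regions, so their bars are a description.

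Markers of other cell types that a fibroblast culture could hold were mixed in direction. Of 14 blood and macrophage genes, 3 (21.4%, against 1.99% of all genes) had a less accessible region and none a more accessible one. These were C1qa, a complement gene of macrophages, with a region at 9.19 kb, Itgam, an integrin of myeloid cells, at 11.6 kb, and Fcgr1, an antibody receptor gene, at 34.7 kb. With links limited to 10 kb, C1qa alone kept its region, 1 of 14. The other 11, among them Ptprc, Adgre1, Csf1r and Cd68, had none. Of 14 endothelial genes, Cdh5 had a less accessible region (7.14%, against 1.99% of all genes), and Erg and Emcn had more accessible ones (14.3%, against 7.27%). Within 10 kb these counts were 0 and 1, and the shares take no account of gene length. The shares of all genes at 10 kb were not computed, here or for the blood and macrophage genes. More accessible regions were linked to 1 of 15 epithelial genes (6.67%), with 2 regions inside Trp63 that lay within 10 kb of each other. They were also linked to 1 of 12 smooth muscle and pericyte genes (8.33%), with a region inside Rgs5. Both shares were near the 7.27% of all genes. Neither of these lists had a less accessible region. The part of cell composition in the regions of the mesothelial markers was not tested.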

How the data were processed

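ATAC-seq libraries of 3 FOP mutant and 3 wild-type fibroblast cultures were compared by the authors. The deposited files are region lists, 1 per direction, holding chromosome, start and end without a header. Base pair positions are their only unit, and direction was taken from each list's name. Per the submitters' processing notes, the tools of the authors included MACS2, featureCounts and DESeq2, and also Trimmomatic, Bowtie2, SAMtools and bedtools, and the builds were mm10 and GRCm38. Their versions, cutoffs, peak pooling, transposase offset and duplicate handling were not given in the sources used here.

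Starts were converted to 1-based positions. Regions were linked to RefSeq GRCm38.p6 genes with Python 3.11.15, numpy 2.4.6 and pandas 2.3.3, and the linking was tested on simulated positions. That table gives spans without strand, so starts came from the RefSeq promoter table. All 188 list entries matched by symbol, and markers were left out of the other lists. The markers and lists were chosen with earlier results of these data known. Named are the markers, genes next to their regions and up to 4 genes per list and direction, with further names chosen after their values were seen. No p-value was computed, as the lists hold no value per library. Alternatives varied the link limit, the link rule, the gene set and merging.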

Additional observations from a re-analysis of the deposited data

How the results depend on the processing

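Over 8 alternatives to the linking rule, 44 counts were recomputed and 38 stayed within 1.5 times the reported count. With every region within 100 kb admitted, more accessible regions at markers numbered 2, at 2 markers, because the region nearer to Dtx2 was then counted for Upk3b as well. With the nearest gene at any distance, 1 further mesothelial gene, Podxl, had a less accessible region. With links limited to 10 kb, 1 further mesothelial gene (Crb2) and 12 genes of the other lists, in place of 20, had more accessible regions, and 1 gene (C1qa), in place of 4, had a less accessible one. A shorter limit can only remove links, and the share of all genes at 10 kb was not computed. Krt19, Cst6, Msln and Upk3b kept a less accessible region and Aldh1a2 its more accessible region under all 8. These regions lay inside the marker or at most 5.15 kb from it. The shorter limits, the wider ones and merging could therefore not remove them. The markers were also chosen from these lists, so nothing is read from their staying.

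No paired analysis was possible because the lists hold no value per library, and for the same reason no replicate was left out. The lists hold no scores for a stricter threshold, and depth, peaks that did not change and the size of each change are unknown. Linking by distance does not show which gene a region acts on.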

Other observations

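Several less accessible regions lay between genes of like name, a pattern noticed after the data were seen. Of the 298 less accessible regions outside genes, 20 (6.71%) had flanking protein-coding genes whose symbols share their first 3 letters, as did 53 of 1620 more accessible regions (3.27%). Among them were the Krt19 region, between Krt19 and Krt9, and the Upk3b region, between Upk3b and Upk3bl. A region between Krt80 and Krt7, type II keratin genes on chromosome 15, and a region between the cadherin genes Cdh11 and Cdh5 were others. The Plscr and Psg gene clusters were each counted more than once, so the 20 are not all separate clusters. The lists also differed in position, with 19.8% of less and 7.52% of more accessible regions within 6 kb of a gene end. Shared letters are a crude sign of kinship, and the difference between the lists was not tested.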
